A study of Arabidopsis thaliana with 4 samples.

Results

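The genes described here encode the antioxidant enzymes of Arabidopsis thaliana together with enzymes that make ascorbate and glutathione. They comprise 44 of the 37885 genes in the deposited count table. Members were chosen by gene identifier: ascorbate peroxidases, superoxide dismutases, the catalases CAT1 and CAT3, dehydroascorbate and monodehydroascorbate reductases, glutathione reductases, the glutathione peroxidase-like proteins GPX1 to GPX8, peroxiredoxins, the thioredoxin reductase NTRC, GSH1, GSH2 and the VTC genes. CAT2, the catalase best known from leaf peroxisomes, and the cytosolic peroxiredoxin TPX1 are not among them.

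Whole seedlings of the double mutant prt6-1hyt1-1 were sampled untreated after 7 days in continuous light on agar without sucrose, and poly(A) RNA was sequenced in 4 libraries called biological replicates 1 to 4. All libraries carry both mutations and form 1 group. PRT6 encodes a ubiquitin ligase through which cells with oxygen degrade group VII ethylene response factors, and the labels do not say which gene hyt1 is. Libraries of wild type or of the single mutants were not analysed here, so the levels below do not measure an effect of either mutation.

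Reactive oxygen species form wherever electrons pass to oxygen, in leaves above all at the photosystems, in peroxisomes and in mitochondria. Superoxide dismutases turn superoxide into hydrogen peroxide, which catalases, ascorbate peroxidases, peroxiredoxins and glutathione peroxidase-like proteins then remove. Ascorbate peroxidase uses up ascorbate, which monodehydroascorbate reductase regenerates directly and dehydroascorbate reductase regenerates with glutathione, and glutathione reductase restores the glutathione. Plants exchange copper/zinc and iron superoxide dismutases according to the copper supply. When copper is scarce, the transcription factor SPL7 acts through GTAC motifs to raise FSD1 and the microRNA miR398, and miR398 lowers the messenger RNAs of CSD1, CSD2 and their copper chaperone CCS.

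The mature miR398 sequences are printed because CSD1, a copper/zinc enzyme and a textbook target of miR398, was among the members that differed most between libraries. They were read from the TAIR10.1 genome (RefSeq annotation) with bases 2 to 8, the seed, in capitals. The seed is the same in both, and miR398c-3p has the same letters as miR398b-3p.

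ath-miR398a-3p: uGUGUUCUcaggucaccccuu
ath-miR398b-3p: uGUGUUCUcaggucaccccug

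The best ungapped complement to these was searched on the annotated transcripts of the 44 members and 30 related genes. Each mismatch cost 1 and each G-U pair 0.5. The sites below are given 5′ to 3′ with A-U and G-C pairs in capitals. Mismatches and G-U pairs are both in lower case.

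CSD1: AAGGGGTttCCTGAGAtCACA
CCS: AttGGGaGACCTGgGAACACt
CSD2: tgcGGGTGACCTGgGAAacat

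CSD1 had the lowest cost of the 74 genes, 3.0 with 3 mismatches, at a site in the 5′ untranslated region that crosses an exon junction (chr1:2827177-2827685, plus strand, TAIR10.1). CCS came next at 4.5, with a site in coding sequence (chr1:4267521-4267541, minus strand). CSD2, a textbook target, had a cost of 6.5 at a coding site (chr2:12015572-12015592, plus strand), and 9 of the 74 genes had a lower cost. Among these were DHAR2 at 5.0 and FSD1 at 5.5, so the search did not set CSD2 apart. A match of letters is a description and not evidence of cleavage.

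The promoter of FSD1 (250 bases before to 50 after the annotated start, chr4:12886962-12887261, minus strand, TAIR10.1) is shown because FSD1 had the highest level of the superoxide dismutases. Its single GTAC, 145 bases upstream of the start, is in capitals.

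FSD1: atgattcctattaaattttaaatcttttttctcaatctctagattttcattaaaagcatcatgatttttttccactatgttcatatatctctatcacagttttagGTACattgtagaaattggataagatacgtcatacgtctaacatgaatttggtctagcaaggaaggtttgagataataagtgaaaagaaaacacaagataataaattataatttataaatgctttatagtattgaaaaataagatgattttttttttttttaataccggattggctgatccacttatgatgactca

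The promoters of the cytosolic ascorbate peroxidases APX1 (chr1:2437031-2437330, plus strand) and APX2 (chr3:2955906-2956205, plus strand) are shown because these genes had the widest difference in level among the pairs compared. The heat shock element core GAANNTTC occurs 116 bases upstream of the start of APX1 and 61 bases upstream of that of APX2, and is in capitals.

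APX1: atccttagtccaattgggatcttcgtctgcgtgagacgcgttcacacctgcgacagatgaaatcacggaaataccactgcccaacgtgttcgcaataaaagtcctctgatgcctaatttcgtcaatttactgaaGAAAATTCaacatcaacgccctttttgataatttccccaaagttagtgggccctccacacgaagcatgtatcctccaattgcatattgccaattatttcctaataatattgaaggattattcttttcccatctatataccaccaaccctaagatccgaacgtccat
APX2: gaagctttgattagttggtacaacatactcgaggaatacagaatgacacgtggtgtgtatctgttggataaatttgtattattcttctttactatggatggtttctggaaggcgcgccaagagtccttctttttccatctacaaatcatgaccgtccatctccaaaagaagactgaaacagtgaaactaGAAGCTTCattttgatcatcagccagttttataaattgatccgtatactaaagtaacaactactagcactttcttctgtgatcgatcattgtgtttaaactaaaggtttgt

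Motifs were searched on both strands in windows of the same length. GTAC was present in 19 of the 44 member promoters (43.2%) and in 39.0% of all 27441 promoters. CACGTG was present in 6 members (13.6%) and in 7.67% of all promoters. GAANNTTC was present in 5 members (11.4%), which were APX1, APX2, DHAR2, GSH2 and VTC2, and in 11.6% of all promoters. The mitochondrial dysfunction motif and the hypoxia-responsive promoter element were in 0 members, beside 0.904% and 0.0656% of all promoters. In none of the 44 proteins was the initial methionine followed by cysteine, the start that the cysteine branch of the N-degron pathway needs, and 205 of 27442 annotated proteins (0.75%) had it.

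The libraries held between 24743656 and 26155431 counts. Levels are given as TPM, which scales counts for merged exon length and for the library total, so that genes can be compared. Differences between libraries are mostly given as CPM, which scales for TMM-adjusted library size and not for length. Sums over several genes, and some single genes, are compared between libraries as TPM. An expression filter kept 19940 genes, among them 42 members, and APX2 and GPX4 did not pass it. Light-harvesting and other green-tissue markers were detected in 8 of 8 cases in every library, with a summed level of 44310 to 47343 CPM, lowest in replicate 4. The 8 root markers were also all above 0 in every library, at 4814 to 5827 CPM, lowest in replicate 1 and highest in replicate 2. The 9 seed storage markers summed to 146 CPM in replicate 2 and to 4.44 to 7.05 CPM in the others, where between 2 and 6 of the 9 were at 0. No library pair was alike within counting error, since between 10.3% and 24.1% of genes differed in each pair.

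Antioxidant transcripts were abundant in these seedlings. A level of 84.4 TPM, the lower edge of the top 10% of genes past the filter, was reached by 30 members, 40 exceeded the median gene at 13.6 TPM, and 4 lay below it. The median over all 44 members was 143 TPM, and together they made up 8832 ± 70.4 TPM (SD, n = 4), or 0.883% of the total. Peroxiredoxins took the largest part of this sum (26.5% ± 0.54), followed by superoxide dismutases (16.1% ± 0.22), ascorbate peroxidases (11.0% ± 0.47) and glutathione peroxidase-like proteins (9.96% ± 0.64). By the usual location of the protein, 17 members of the chloroplast made up 52.8% ± 1.18 of the sum, 12 of the cytosol 22.2% ± 0.80, 6 of the peroxisome 13% ± 0.42 and 2 of the mitochondrion 4.81% ± 0.25.

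**Figure D1:**
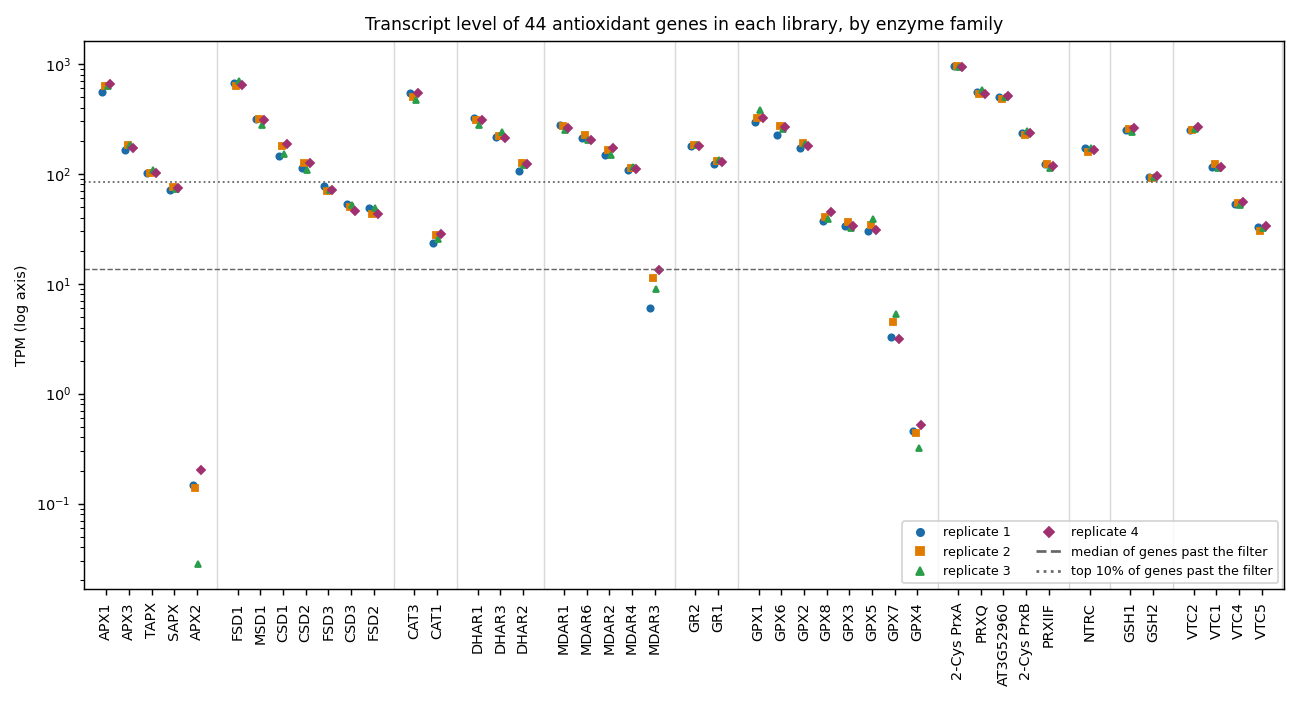
Transcript level (TPM, log axis) of the 44 members, grouped by enzyme family, with 1 point per library (replicates 1 to 4). The dashed line is the median gene past the filter (13.6 TPM) and the dotted line the lower edge of the top 10% (84.4 TPM). Within each family the levels span from the most to the least abundant gene while the 4 points of a gene mostly lie close together, and APX2, GPX4, GPX7 and MDAR3 lie low.

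Superoxide dismutases are classed by their metal. The iron enzymes FSD1, FSD2 and FSD3, of chloroplasts, made up 54.9% ± 2.51 of the family's TPM (SD, n = 4), the copper/zinc enzymes CSD1, CSD2 and CSD3 made up 23.6% ± 1.77, and the manganese enzyme MSD1 of mitochondria made up 21.5% ± 1.11. FSD1 (AT4G25100, chromosome 4, 12884300 to 12887011, minus strand) had 16671, 16574, 18015 and 15937 counts in replicates 1 to 4, or 660 ± 29.2 TPM, 46.5% of the family. MSD1 followed at 305 ± 17.6 TPM, the cytosolic CSD1 at 166 ± 19.9 TPM and the plastid CSD2 at 118 ± 8.40 TPM. FSD3 was at 72.6 ± 3.76 TPM, the peroxisomal CSD3 at 50.2 ± 3.14 TPM and FSD2 at 46.0 ± 3.43 TPM. All 4 libraries had this order, although the ranges of CSD3 and FSD2 over libraries overlapped, and with longest transcript lengths FSD2 (53.2 TPM) came above CSD3 (52.1 TPM).

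The balance between iron and copper/zinc enzymes differed between libraries. Iron superoxide dismutases summed to 803, 746, 813 and 753 TPM in replicates 1 to 4, and copper/zinc enzymes to 313, 354, 312 and 358 TPM. The summed levels of replicates 1 and 3 were thus high for iron and low for copper/zinc, and those of replicates 2 and 4 the reverse, while the summed family stayed at 1418 ± 10.8 TPM (SD, n = 4). CSD1 (AT1G08830, chromosome 1, 2827060 to 2829315, plus strand) had 2026, 2641, 2221 and 2617 counts, or 81.2, 102, 87.3 and 104 CPM. CSD2 had 76.2, 85.3, 74.8 and 83.9 CPM and FSD1 had 668, 640, 708 and 631 CPM. The copper/zinc order came from CSD1 and CSD2 alone, since CSD3, with 25.3, 24.4, 25.7 and 21.9 CPM, was highest in replicate 3 and lowest in replicate 4, and was not called. CSD1, CSD2 and FSD1 varied more than counting error allowed, by a chi-square test over the 4 libraries with Benjamini-Hochberg adjustment across all genes (adjusted p = 2.03e-19 for CSD1, 5.67e-05 for CSD2 and 2.71e-28 for FSD1), and none of these calls was lost when any replicate was left out. Of the exon bases of CSD1, 4.7% overlap the antisense gene AT1G08840, which had 243, 235, 242 and 194 counts. For CSD3 the overlap was 25.1%, with the antisense genes AT5G02875 and AT5G18110. AT5G18110 had 1107, 1227, 1214 and 1128 counts, and CSD3 had 631, 633, 653 and 553. The level and library order of CSD3 may thus include reads of AT5G18110, which was not tested.

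Other genes linked to copper were placed beside them. CCS, the copper chaperone of the copper/zinc enzymes, had 28.2, 32.8, 32.3 and 34.6 CPM, lowest in replicate 1 and highest in replicate 4. The precursor of miR398b (AT5G14545), chosen after its values were seen, had 71, 40, 93 and 59 counts, with exact Poisson 95% intervals of 55.5 to 89.6, 28.6 to 54.5, 75.1 to 114 and 44.9 to 76.1 for counting error only. It was highest in replicate 3 and lowest in replicate 2, and replicates 1 and 3 were above replicates 2 and 4, as for FSD1 and opposite to CSD1 and CSD2. The interval of replicate 4 overlapped those of replicates 1 and 3, so counting error limits this order. The precursors of miR398c and miR398a had 6 to 10 and 0 to 1 counts, too few to order the libraries. Of the 6 copper-related genes listed for comparison, 3 varied beyond counting error (CCS, CCH and ATX1), a share near the 42.7% of all genes tested, while SPL7 at 16.2 TPM, the copper transporters COPT1 at 51.4 TPM and COPT2 at 43.0 TPM were not called. With 4 libraries and no measured copper, whether these orders belong together was not tested.

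**Figure D2:**
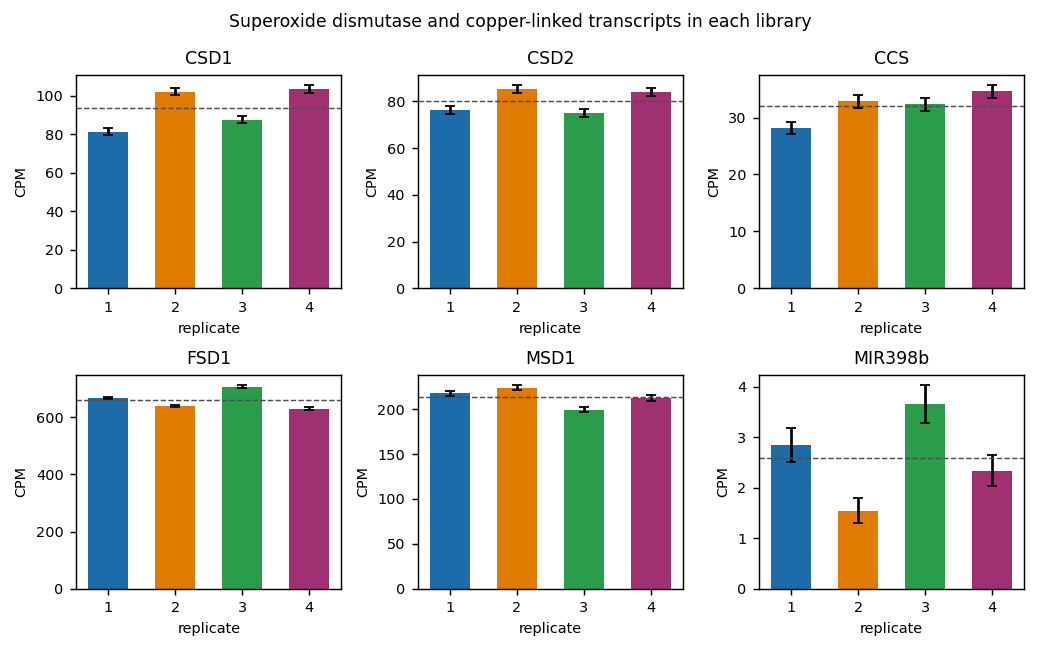
Depth-normalised counts (CPM, bars from 0) of 3 superoxide dismutases besides MSD1, the chaperone CCS and the miR398b precursor in replicates 1 to 4. Error bars are the counting error (square root of the count) and dashed lines the mean. CSD1 and CSD2 are high in replicates 2 and 4, while FSD1 and the miR398b precursor are high in replicates 1 and 3. For the precursor, the exact Poisson 95% interval of replicate 4 overlaps those of replicates 1 and 3.

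Ascorbate peroxidases were led by cytosolic APX1 (AT1G07890, chromosome 1, 2437281 to 2439665, plus strand). It had 15931, 19107, 18725 and 18853 counts in replicates 1 to 4, or 618 ± 40.9 TPM (SD, n = 4), and made up 63.6% ± 1.26 of the family. Replicate 1 was lowest and the other libraries were close together. The peroxisomal APX3 was at 176 ± 7.79 TPM, the thylakoid TAPX at 103 ± 3.87 TPM and the stromal SAPX at 73.8 ± 2.22 TPM. APX2 (AT3G09640), a cytosolic isoform known for induction by heat and high light, had 2, 2, 0 and 3 counts. Over all libraries and per length, APX1 exceeded APX2 6189 times (exact 95% interval for counting error 3004 to 15395). APX1 passed the chi-square test across all genes (adjusted p = 9.57e-57), but without replicate 1 the adjusted p was 0.549.

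Of the catalases in the list, CAT3 (515 ± 36.9 TPM, SD, n = 4) far exceeded CAT1 (26.3 ± 2.17 TPM). CAT3 had 29356, 28819, 26480 and 29552 counts, lowest in replicate 3, and CAT1 had 837, 1044, 946 and 1013, lowest in replicate 1. CAT3 thus made up 95.1% ± 0.49 of the pair. CAT2, looked up after the values were seen, had 26705, 33731, 38950 and 33264 counts and 730 ± 96.2 TPM. With CAT2 in the total, CAT2 held 57.2% ± 4.69 and CAT3 40.7% ± 4.64. CAT2 was highest in replicate 3 and lowest in replicate 1, and CAT3 was lowest in replicate 3.

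Among the enzymes that return ascorbate to its reduced form, each compartment was represented. Monodehydroascorbate reductases were led by MDAR1 (266 ± 10.8 TPM, SD, n = 4) of the peroxisome, MDAR6 (211 ± 11.1 TPM) of plastids and mitochondria and cytosolic MDAR2 (158 ± 11.1 TPM), with the peroxisomal membrane form MDAR4 at 111 ± 2.89 TPM. MDAR3 (AT3G09940, chromosome 3, 3056375 to 3059244, minus strand), a further cytosolic form, was low at 9.92 ± 3.12 TPM. It had 153, 301, 240 and 342 counts, so that replicate 4 held more than replicate 1 by 2.21 times in CPM, the widest ratio among the members past the filter. Dehydroascorbate reductases were ordered as cytosolic DHAR1 (304 ± 19.0 TPM), plastid DHAR3 (222 ± 11.3 TPM) and cytosolic DHAR2 (119 ± 7.72 TPM) in every library. DHAR1 and DHAR3 differed in library order. DHAR1 was lowest in replicate 3 (322, 309, 277 and 309 TPM), where DHAR3 was highest (217, 219, 238 and 212 TPM).

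Glutathione reductase transcripts of the organellar form GR2 (180 ± 2.19 TPM, SD, n = 4) exceeded those of the cytosolic form GR1 (129 ± 4.87 TPM) in every library, and GR2 made up 58.4% ± 0.77. GSH1, the plastid enzyme of the rate-limiting step of glutathione synthesis, was at 251 ± 8.30 TPM. GSH2, which completes glutathione, was at 93.6 ± 0.97 TPM and had the smallest coefficient of variation of CPM of the tested members, 1.40%, with 3011, 3152, 3171 and 3081 counts. On the ascorbate route VTC2, the GDP-L-galactose phosphorylase taken as its main control point, was at 256 ± 5.85 TPM and its paralog VTC5 at 32.2 ± 1.59 TPM. VTC1, which makes GDP-mannose, was at 117 ± 4.20 TPM and VTC4, an L-galactose-1-phosphate phosphatase, at 53.8 ± 1.22 TPM.

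Peroxiredoxins included the most abundant member, the chloroplast 2-Cys PrxA (AT3G11630, chromosome 3, 3672036 to 3674159, plus strand), at rank 108 of the genes past the filter. It had 17996, 18809, 18437 and 17780 counts and 947 ± 11.5 TPM (SD, n = 4). Its paralog 2-Cys PrxB was at 234 ± 8.02 TPM, PRXQ of thylakoids at 548 ± 21.6 TPM, the plastid peroxiredoxin AT3G52960 at 494 ± 13.5 TPM and the mitochondrial PRXIIF at 119 ± 4.16 TPM. The order was the same in every library. NTRC, the plastid thioredoxin reductase that reduces 2-Cys peroxiredoxins, was at 167 ± 6.88 TPM. Transcripts of 2-Cys PrxA and 2-Cys PrxB share 86.6% identity over 54.1% of the length, so how reads were divided between these paralogs is partly uncertain. Closer matches over shorter stretches leave the same uncertainty for 3 members of other families. They were DHAR1 with AT1G19550 (96.9% over 28.6%), FSD2 with AT4G00651 (96.8% over 14.1%) and APX1 with AT1G33660 (89.1% over 13.9%).

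Glutathione peroxidase-like proteins, which in plants take electrons mainly from thioredoxin, were led by plastid GPX1 (AT2G25080, chromosome 2, 10667898 to 10670127, plus strand) at 330 ± 37.1 TPM (SD, n = 4). GPX1 had 5889, 6708, 7999 and 6431 counts, highest in replicate 3 and lowest in replicate 1. GPX6 was at 255 ± 20.2 TPM and GPX2 at 182 ± 9.42 TPM, and then GPX8, GPX3 and GPX5 lay between 33.6 and 40.3 TPM. GPX3 and GPX5 kept their order in 3 of 4 libraries. Of the exon bases of GPX3, 21.2% overlap the antisense genes AT2G09455 and AT2G43340. AT2G43340 was at 31.4 TPM, beside 33.9 TPM for GPX3. The level and library order of GPX3 may thus include reads of AT2G43340, which was not tested. GPX7, the plastid paralog of GPX1, had 89, 129, 151 and 86 counts (4.05 ± 1.02 TPM), and 43.9% of its exon bases overlap the antisense gene AT4G31875, which itself had 18, 17, 38 and 23 counts. GPX4 had 7, 7, 5 and 8 counts, a total of 27 (exact Poisson 95% interval 17.8 to 39.3).

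The order of related genes was the same in every library for the 13 pairs compared. The log2 ratio of TPM had the same sign in 4 of 4 libraries. The widest after APX1 over APX2 were GPX1 over GPX7 at 6.38 ± 0.25 (SD, n = 4), CAT3 over CAT1 at 4.29 ± 0.16, VTC2 over VTC5 at 2.99 ± 0.06 and FSD1 over CSD2 at 2.49 ± 0.17. 2-Cys PrxA over 2-Cys PrxB was at 2.02 ± 0.06, GSH1 over GSH2 at 1.42 ± 0.05, DHAR1 over DHAR2 at 1.36 ± 0.16 and MDAR1 over MDAR4 at 1.26 ± 0.09. The closest were CSD1 over CSD2 at 0.49 ± 0.09, SAPX over TAPX at -0.48 ± 0.09, GR1 over GR2 at -0.49 ± 0.05 and FSD2 over FSD3 at -0.66 ± 0.08. An exact two-sided sign-flip test over 4 libraries gave p = 0.125 for each pair, and 0.125 after adjustment over the 13 pairs, which is the smallest value that 16 sign patterns allow.

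**Figure D3:**
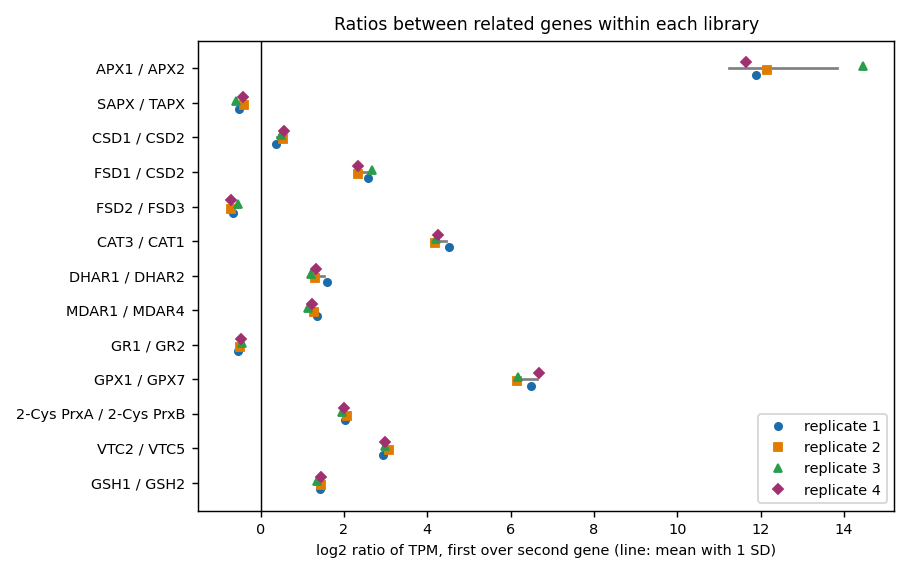
Log2 ratio of TPM between the genes of 13 pairs in each library (points, replicates 1 to 4), with a line for the mean with 1 SD on either side. All points of a pair lie on 1 side of 0. APX1 over APX2 is widest and least certain, because APX2 had between 0 and 3 counts, and the ratio then depends on the 0.5 count added.

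Counts of 34 of the 42 tested members varied between libraries by more than counting error (chi-square test with Benjamini-Hochberg adjustment across all genes, 0.05), beside 42.7% of all genes tested. Over all genes, the share called was higher among those with many counts. Whether depth accounts for the share of members was not tested. Among genes with a mean count of at least 1000, 29 of 35 members varied, beside 65.0% of all such genes. The sizes were small, with a coefficient of variation of CPM from 1.40% to 31.2% and a median of 5.20%, under 5% for 17 members and at least 10% for 5. The 8 members not called were SAPX, CSD3, FSD3, GPX3, PRXIIF, GSH2, VTC4 and VTC5, with adjusted p from 0.0628 to 0.738 across all genes. Single libraries decided some calls. Leaving out any library also lowered the share called over all genes. Without replicate 1, 27 members varied, beside 26.2% of all genes, and APX1, CAT1, DHAR2, GPX6, GPX8, MDAR4 and VTC2 were no longer called. Without replicate 3, 28 varied, beside 30.7% of all genes: 2-Cys PrxB, DHAR1, DHAR3, GPX5, MDAR4, MSD1, AT3G52960 and TAPX were lost, and FSD3 and SAPX were called. Without replicate 2, 33 varied, beside 35.1% of all genes, with AT3G52960 and VTC1 lost and CSD3 called. Without replicate 4, 33 varied, beside 35.7%, with 2-Cys PrxA and GPX8 lost and SAPX called.

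The biological coefficient of variation (BCV) is edgeR's estimate of the spread left after counting error. For each gene edgeR draws this estimate toward the trend of genes at like expression, so nearness to the trend is partly built in. The BCV had a median of 0.0552 over the members, beside 0.0566 for the trend of genes at their expression and 0.0807 for all genes. It lay above the trend for 16 of 42 members, beside 34.1% of all genes, a share near the background. The excess over the trend was largest for MDAR3 (BCV 0.171), GPX7 (0.164), GPX1 (0.0764), CSD1 (0.0748) and GPX5 (0.0836). These 5 differed in their library order. GPX1, GPX5 and GPX7 were highest in replicate 3, MDAR3 and CSD1 in replicate 4. Each of the 5 was called by the chi-square test across all genes, with adjusted p from 4.70e-68 for GPX1 to 0.000137 for GPX7. A call was a condition for naming them here, and both measures use the same libraries. The calls are thus no separate support. GPX5 was no longer called without replicate 3 (adjusted p = 0.0740).

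**Figure D4:**
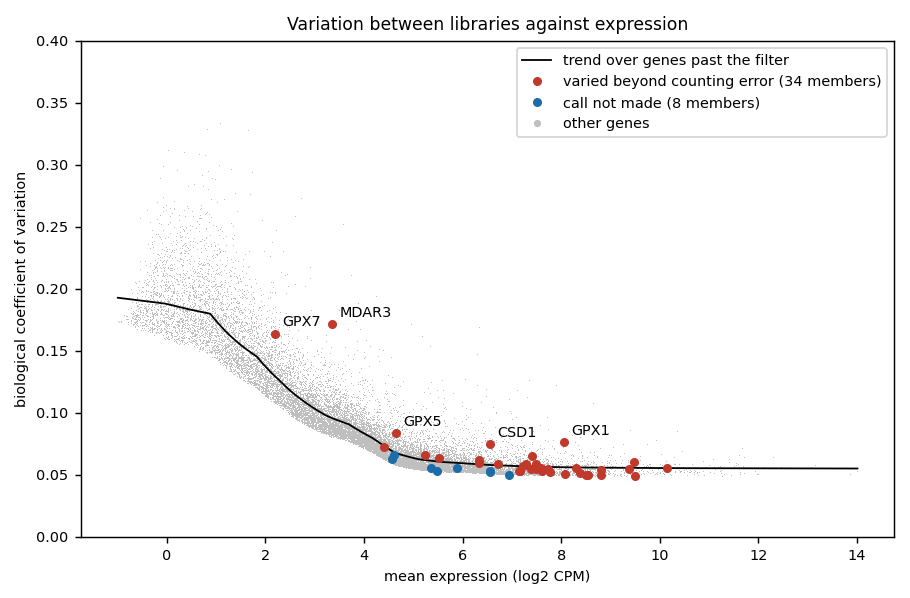
Biological coefficient of variation against mean expression (log2 CPM) for genes past the filter (grey), with the edgeR trend as a line. Members that varied beyond counting error are red (34) and the others blue (8). Most members lie near the trend, toward which edgeR draws each gene's value, and MDAR3, GPX7, GPX1, CSD1 and GPX5 lie farthest above it.

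Libraries were not alike in where the members lay. Replicate 1 was the lowest of the 4 libraries for 20 of 42 members, beside 28.5% of all genes, and replicate 3 was the highest for 17, beside 26.1%. The median deviation from a gene's mean over libraries was -0.04, 0.03, 0.03 and -0.02 on the log2 CPM scale for replicates 1 to 4, and 0.00 in each library over all genes. Members of the chloroplast and the other members went apart. Of the 17 chloroplast members, 11 were highest in replicate 3 and 9 were lowest in replicate 4 (22.4% of all genes were), with median deviations of -0.01, -0.01, 0.06 and -0.05. Of the 25 other members past the filter, 17 were lowest in replicate 1, with median deviations of -0.07, 0.05, -0.01 and 0.00. The green-tissue markers were also lowest in replicate 4, but they were highest in replicate 1 and not in replicate 3. The root markers were lowest in replicate 1. The part of either marker set in these orders was not tested. In whole seedlings, fewer cells of a type and less RNA per cell cannot be told apart.

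**Figure D5:**
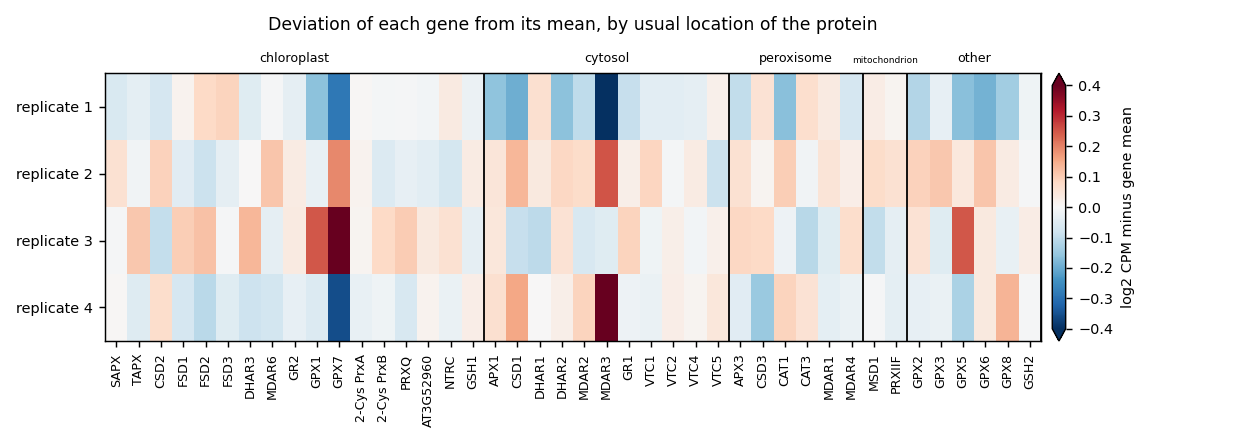
Deviation of log2 CPM from the gene's mean over 4 libraries for the 42 members past the filter (columns), by replicate (rows), grouped by the usual location of the protein. Red is above and blue below the mean, and colours are limited at 0.4. Replicate 1 is mostly blue outside the chloroplast group (17 of 25 lowest there), and replicate 3 is mostly red within it (11 of 17 highest there).

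Genes next to these pathways gave further context. Of 7 further thioredoxin and peroxiredoxin genes, 6 varied beyond counting error, beside 42.7% of all genes tested and 65.0% of those with a mean count of at least 1000. The h-type thioredoxin TRX3 (AT5G42980) was at 1045 ± 38.0 TPM (SD, n = 4), above every member, and TRX5 (AT1G45145) had 929, 1508, 1301 and 1191 counts, lowest in replicate 1. Cytosolic TPX1 (AT1G65980) was at 186 ± 4.97 TPM and sulfiredoxin SRX, which repairs over-oxidised 2-Cys peroxiredoxins, at 31.4 ± 1.96 TPM. The cytosolic and mitochondrial thioredoxin reductases NTRA and NTRB were at 111 and 27.8 TPM.

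Of 5 further ascorbate genes, 1 was called, beside 42.7% of all genes tested and 65.0% of those with a mean count of at least 1000. This was the GDP-mannose epimerase GME, with 304 TPM and its highest value in replicate 3. GLDH, the mitochondrial last step, was at 22.3 TPM. Of 3 glutathione breakdown genes, 2 could be tested and 0 were called, too few to set against these shares. The 5-oxoprolinase OXP1 was at 27.8 TPM and the glutamyltransferase GGT1 at 15.0 TPM, while GGT2 had 0, 2, 0 and 0 counts.

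Of 9 transcripts commonly raised by oxidative stress, 6 varied beyond counting error, beside the same shares of 42.7% and 65.0%. The glutathione transferase GSTU25 had 864, 1402, 940 and 1309 counts, high in replicates 2 and 4 like CSD1 and CSD2. The alternative oxidase AOX1A had 840, 1140, 1093 and 1071 counts, lowest in replicate 1. The zinc finger gene ZAT10 had 697, 536, 572 and 576 counts and was highest in replicate 1, while ZAT12, at 12.6 TPM, was not called. GSTU24 was the most abundant of the 9 at 74.1 ± 7.14 TPM (SD, n = 4), and AT2G21640 the least at 5.75 ± 0.30 TPM.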

How the data were processed

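Members and lists were chosen with earlier results of these data known. The table holds unnormalised read counts per gene, deposited by the authors, whose processing per the submitters' processing notes used HISAT2 2.1.0, featureCounts 1.6.0 and the TAIR10 build. Strandedness of counting, annotation version and treatment of multi-mapping reads are not given in the sources, so the 10 members that share between 0.24% and 43.9% of their exon bases with an antisense gene may share its reads. In the column names hup40 stands in place of the labels' hyt1, so columns were matched by the prt6-1 name and replicate number. Replicate 4's title exchanges characters of the genotype and was read as a misprint.

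Of 37885 identifiers, 37882 matched TAIR10.1, which supplied positions, lengths and sequences. TPM used the count plus 0.5 over merged exon length, and CPM used TMM-scaled library sizes (edgeR 4.0.16, R 4.3.3). The chi-square test of homogeneity needed a minimum of 10 expected counts in each library. BCV came from an intercept-only edgeR fit. Near-identical copies (BLAST 2.17.0, 98% identity over 90% of the transcript) were found for 0 members. Scripts were tested on simulated data. All 44 members could be named. Counts in every library were for the highest and lowest of a family and the 5 called members with the largest BCV excess. Exceptions are marked. Alternatives were DESeq2 1.42.0 size factors, no expression filter, a minimum of 50 expected counts, 2 counts added, longest transcript lengths, means in place of medians, BCV above trend, and leaving out each replicate. Precision of single counts is limited by counting error, and p-values measure only the spread between these libraries, which the labels call biological replicates.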

Additional observations from a re-analysis of the deposited data

Results flagged for a closer look

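The gap of a single library from the others was large for its group in 3 of 66 quantities examined (the CPM of each member past the filter, the ratio of each pair and the summed TPM of each family with several members and of all members), and chance alone gives about 1 in 20. The CPM of APX1 was low in replicate 1, at 639 beside 736 to 746 in the others, so that the gap made up 0.909 of the whole range. The summed TPM of the ascorbate peroxidases, to which APX1 contributes most, was likewise low in replicate 1, at 899 beside 989 to 1004, with a gap of 0.855 of the range. The CPM of GPX3 was high in replicate 2, at 25.4 beside 22.8 to 23.1 in the others, with a gap of 0.867 of the range, although its counts did not pass the chi-square test across all genes (adjusted p = 0.273).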

How the results depend on the processing

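No pair ratio or median deviation changed sign under the alternatives run, but with longest transcript lengths FSD2 (53.2 TPM) came above CSD3 (52.1 TPM). Of 42 members, 34 varied beyond counting error with DESeq2 size factors, with no filter and with a minimum of 50 expected counts, and 27 to 33 when a replicate was left out, where the share over all genes fell from 42.7% to between 26.2% and 35.7%. A BCV above trend, a different measure, held for 16. Without the filter the median log2 TPM of the members was 7.14 in place of 7.29, because APX2 and GPX4 then enter. Longest transcript lengths in place of merged exons moved the log2 ratio of FSD1 over CSD2 to 2.76, FSD2 over FSD3 to -0.42, CAT3 over CAT1 to 4.52, GR1 over GR2 to -0.44, 2-Cys PrxA over 2-Cys PrxB to 1.91 and GSH1 over GSH2 to 1.62. They moved the family shares to 69.3% for APX1, 50.9% for FSD1, 95.8% for CAT3, 57.6% for GR2, 75.5% for GSH1 and 53.8% for VTC2. With CAT2 added, after the data were seen, CAT3 held 40.7%. Levels rest on these lengths. No paired analysis was possible because there is only 1 group. Depth limits APX2 and GPX4, whose counts were 0 to 8 per library.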
